A study of Homo sapiens with 6 samples.

Results

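The SLC25 genes encode the mitochondrial carriers, a large family of membrane transporters. Members were the rows of the deposited TPM table whose gene name is SLC25A followed by digits alone, with 3 symbols of that form not reported here, which left 45 of the 60623 rows with a gene name. All 6 RNA-seq libraries bear the name of the myeloma line RPMI-8226, an established line of malignant plasma cells. Of these, 3 carry the label XYA1353, a compound that the series title calls a 2-iminobenzimidazole, and 3 the label control. All 6 are labelled 48 h, and no dose is given in the labels. Nothing in the labels says that libraries of a group came from separate cultures, so the spread behind each p-value is that between these libraries alone and may be technical. TPM, the deposited unit, is a level scaled by transcript length and to the same total in every library, and the number of reads behind a value is not known.

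Mitochondrial carriers are small proteins that sit mostly in the inner mitochondrial membrane and move metabolites, nucleotides, amino acids and cofactors between the matrix and the cytosol. They are made in the cytosol and inserted into the inner membrane by the TIM22 translocase. ADP/ATP carriers export the ATP that ATP synthase makes, the phosphate carrier supplies phosphate for it, and the VDAC porins let these solutes cross the outer membrane.

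The labelled cell type was checked against marker genes. Of 10 plasma cell markers 9 had a mean under 1 TPM, CD38, TNFRSF17 and JCHAIN were listed at 0 in all 6 libraries, and 10 of 11 erythroid markers had a mean of at least 10 TPM. By these markers the transcripts of both groups look erythroid and go against the plasma cell label, for a reason that was not tested. Summed TPM of the plasma cell list, nearly all of it XBP1, was 99.9 to 145 in XYA1353 libraries and 65.7 to 71.8 in control libraries. The erythroid list summed to 6167 to 17081 TPM in XYA1353 libraries and 9814 to 12346 TPM in control libraries, with 1 of its 11 genes called higher, ALAS2, the erythroid enzyme that starts heme synthesis (log2 fold change 2.86). The part of these differences in the results below was not tested, and a lower transcript level per cell cannot be told apart from fewer cells that express it.

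Carrier transcripts spanned a wide range of levels. The mean over the 6 libraries was at least 100 TPM for 5 members, 10 to 100 TPM for 25, 1 to 10 TPM for 5 and under 1 TPM for 10. The 10 under 1 TPM were not tested, and 3 of them, SLC25A2, SLC25A27 and SLC25A31, were listed at 0 in every library. Summed over the 45 members, transcripts came to 3528, 3592 and 3411 TPM in XYA1353 replicates 1, 2 and 3, against 2975, 3169 and 3143 TPM in control replicates 1, 2 and 3. The groups did not overlap, with 3510.3 ± 91.5 TPM in XYA1353 libraries and 3096 ± 105 TPM in control libraries (SD, n = 3 each). An exact two-sided permutation test gave p = 0.1, the smallest that 3 libraries against 3 allow, or 0.25 after Benjamini-Hochberg adjustment over the 10 quantities compared in this way.

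SLC25A6, SLC25A5 and SLC25A3 made up most of that sum. Together they came to 2602 ± 101 TPM in XYA1353 libraries and 2129.6 ± 91.8 TPM in control libraries, which was 74.1 ± 0.967% in XYA1353 libraries and 68.8 ± 0.708% in control libraries of the family's TPM (SD, n = 3 each). All other members together came to 909 ± 10.4 TPM in XYA1353 libraries and 966 ± 17.6 TPM in control libraries. The highest 3 therefore held the whole of the difference in the sum, and the rest lay on its other side.

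**Figure D1:**
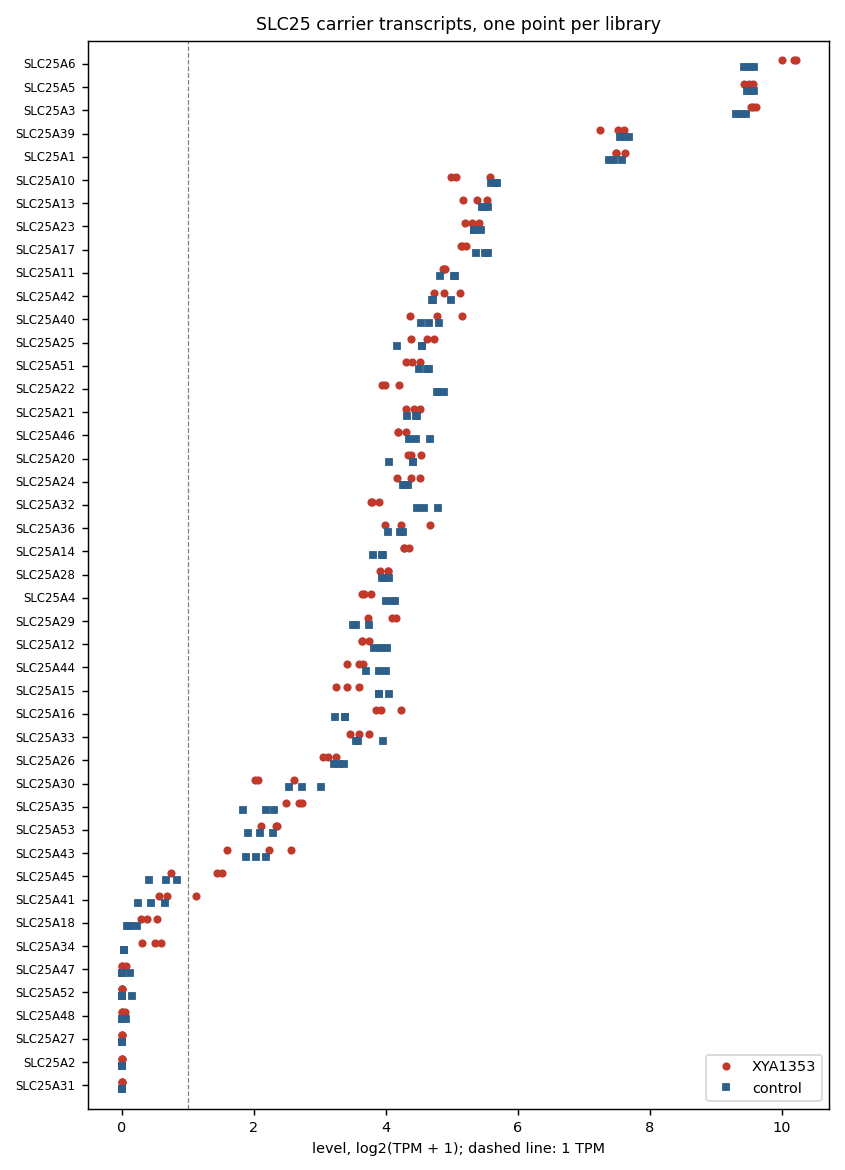
Levels of the SLC25 members as log2(TPM + 1), with 1 point per library, XYA1353 and control marked by colour and shape, ordered by their mean. SLC25A6, SLC25A5 and SLC25A3 stand above all other members, and the 10 members with means under 1 TPM lie at the low end.

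Of the 35 members tested, 4 were called higher in XYA1353 libraries, 5 lower and 26 were not called. A call is an adjusted p under 0.05 from limma, with Benjamini-Hochberg adjustment over all 13392 genes that had a mean of at least 1 TPM. Each fold change is the XYA1353 mean minus the control mean of log2(TPM + 1), a scale that shrinks the changes of low genes. The share of tested members called was 25.7%, against 31.4% of all genes, of which 15.4% were called higher and 16.0% lower. The groups did not overlap for 14 members, 5 higher and 9 lower (40.0%), against 47.6% of all genes, with 23.8% in each direction. An unadjusted p under 0.05 was reached by 16 members (45.7%), against 42.8% of all genes. These shares lie near the background. The median log2 fold change was -0.035 over tested members and 0.019 over all genes, and the median of its size was 0.17 for members and 0.28 for all genes. The median coefficient of variation of tested members was 9.34% in XYA1353 libraries and 6.69% in control libraries, beside 12.02% and 9.91% over all genes. Members and all genes were not matched for level, so these medians do not show that the family changed less or was steadier.

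The members that rose were SLC25A16, SLC25A6, SLC25A14 and SLC25A3, and those that fell were SLC25A32, SLC25A22, SLC25A15, SLC25A4 and SLC25A17. For all 9 the XYA1353 and control libraries did not overlap. The calls were made on these same values, which makes this likely, so it is not separate support. In 8 of the 9, all but SLC25A16, XYA1353 replicate 3 showed the smallest change from the control mean, as it did for 60.5% of all called genes. SLC25A6, SLC25A22 and SLC25A32 were called under all 15 alternatives run. Counts were 3 higher and 3 lower without XYA1353 replicate 1, 4 and 3 without XYA1353 replicate 2, 3 and 3 without control replicate 1, 4 and 3 without control replicate 2, 2 and 4 without control replicate 3, and 1 higher and 2 lower without both libraries numbered 1. Rescaling TPM without mitochondrial, immunoglobulin, ribosomal RNA and globin genes gave 3 higher and 9 lower, and quantile normalization gave 4 and 8.

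**Figure D2:**
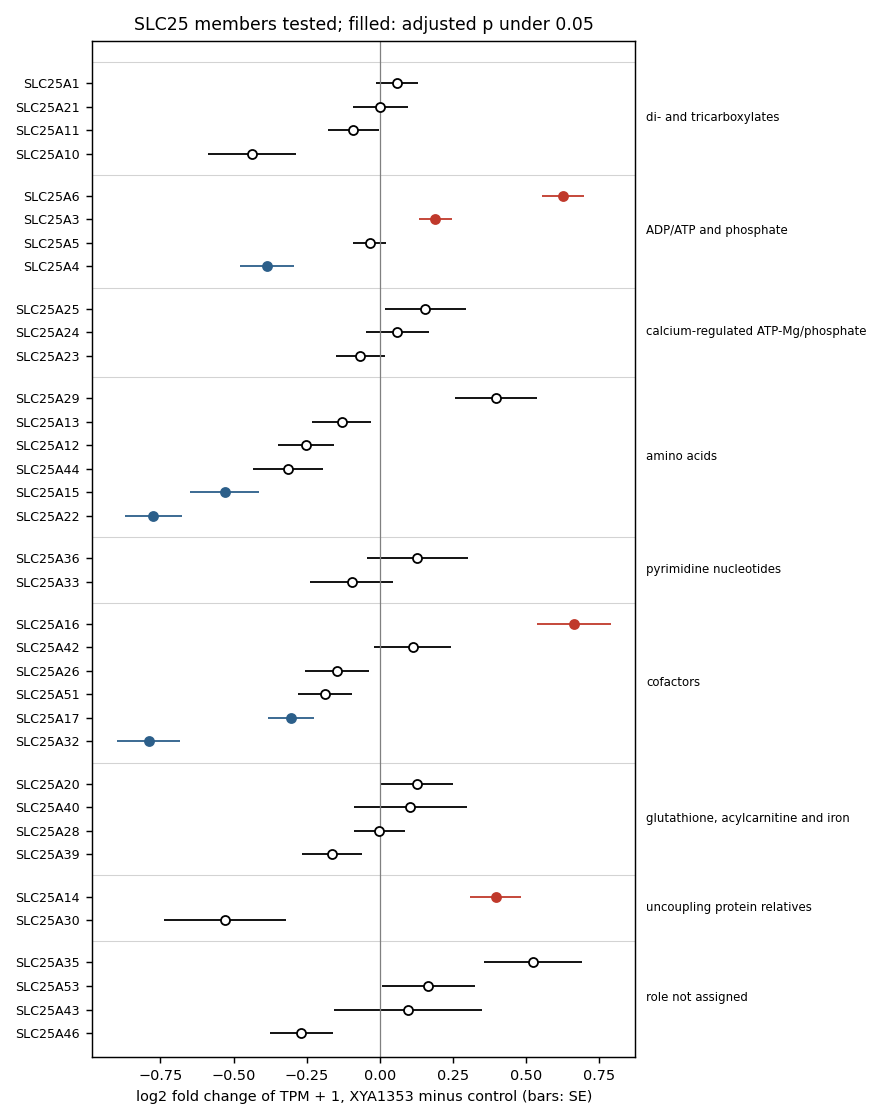
Log2 fold change of TPM + 1 (XYA1353 minus control) with its SE for the 35 tested members, grouped by the solute carried, with called members in colour. Of 6 tested amino acid carriers 2 fell, and of 6 tested cofactor carriers 2 fell and 1, SLC25A16, rose. The share called lower was 33.3% in each class, against 16.0% of all genes. SLC25A6 and SLC25A4, both ADP/ATP carriers, lie on opposite sides of 0.

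ADP/ATP carriers exchange matrix ATP for cytosolic ADP, and of the 4 human isoforms those detected did not move together. SLC25A6, the broadly expressed isoform (ENSG00000169100, chromosome X, 1386152 to 1392724, minus strand; all gene coordinates are GENCODE 29 on GRCh38), had 1162, 1181 and 1026 TPM in XYA1353 replicates 1, 2 and 3, against 686, 764 and 729 TPM in control replicates 1, 2 and 3. Every XYA1353 library lay above every control library, by 0.63 on the log2 scale (SE 0.072, limma adjusted p = 0.00174). It was the highest carrier transcript in each XYA1353 library, whereas in control libraries its range overlapped that of SLC25A5. SLC25A5, the isoform associated with growing cells (ENSG00000005022, chromosome X, 119468400 to 119471319, plus strand), stood at 685, 751 and 722 TPM in XYA1353 libraries, against 709.5, 736 and 766 TPM in control libraries. These groups overlapped, and the log2 difference of -0.035 (SE 0.057, limma adjusted p = 0.670) was smaller than its error. SLC25A4, the heart and muscle isoform (ENSG00000151729, chromosome 4, 185143241 to 185150382, plus strand), was far less abundant, at 11.5, 11.7 and 12.7 TPM in XYA1353 libraries, against 16.2, 16.6 and 14.98 TPM in control libraries. All XYA1353 values were below the controls, and it fell by 0.39 on the log2 scale (SE 0.093, limma adjusted p = 0.0184), a call lost without XYA1353 replicate 1, XYA1353 replicate 2, control replicate 1, control replicate 2 or both libraries numbered 1 (adjusted p between 0.0547 and 0.127). SLC25A31, the germ cell isoform, was listed at 0 throughout.

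The make-up of the ADP/ATP carrier pool differed accordingly. SLC25A6 held 62.5, 60.8 and 58.3% of the summed ADP/ATP carrier TPM in XYA1353 replicates 1, 2 and 3, against 48.6, 50.4 and 48.3% in control replicates 1, 2 and 3. The groups did not overlap, and the share was 11.4 percentage points higher in XYA1353 libraries (exact two-sided permutation p = 0.1, adjusted p = 0.25). Coding sequences of SLC25A5 and SLC25A6 are identical at 704 of 894 aligned bases (78.7%), and that of SLC25A4 matches SLC25A5 at 77.2% and SLC25A6 at 77.9%. No SLC25A6 pseudogene in the table had a mean above 0.0867 TPM, and none of SLC25A5 above 0.0317 TPM.

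**Figure D3:**
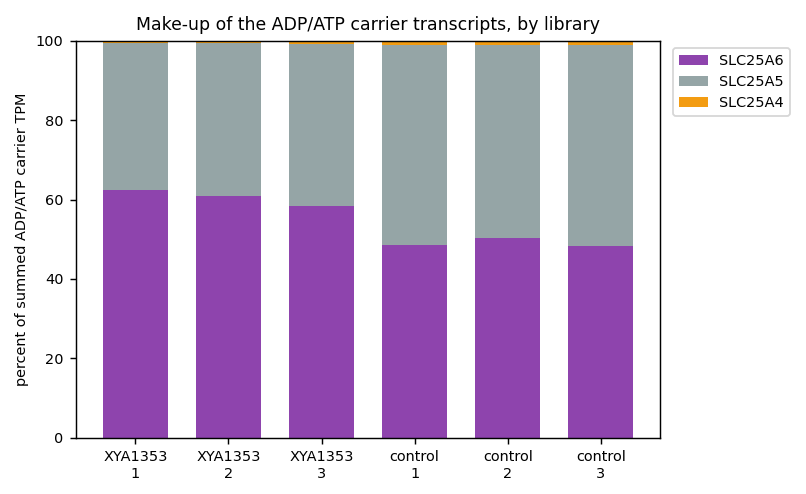
Share of the summed ADP/ATP carrier TPM held by SLC25A6, SLC25A5 and SLC25A4 in each library, in percent, with the XYA1353 libraries left of the control libraries. SLC25A6 holds the larger share in every XYA1353 library, between 58.3% and 62.5%, against 48.3% to 50.4% in control libraries.

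SLC25A3, the phosphate carrier (ENSG00000075415, chromosome 12, 98593591 to 98606379, plus strand), stood at 778, 757 and 742 TPM in XYA1353 replicates 1, 2 and 3, against 632, 703 and 664 TPM in control replicates 1, 2 and 3. The XYA1353 libraries were all above the controls, by 0.19 on the log2 scale (SE 0.056, limma adjusted p = 0.0400). The call was made in 5 of 15 alternatives. It was lost with no filter on low values, under median-of-ratios scaling, under the rescaling, with no trend in eBayes or with the replicate number as a block, and without XYA1353 replicate 1, XYA1353 replicate 2, control replicate 1, control replicate 3 or both libraries numbered 1 (adjusted p between 0.0637 and 0.204), with an adjusted p of 0.0670 under the block. Under the rescaling without mitochondrial, immunoglobulin, ribosomal RNA and globin genes the log2 fold change was 0.12. It stayed positive in all 15 alternatives, from 0.12 to 0.24, so its call and size changed with the setting and its direction did not.

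Upstream sequence is shown for SLC25A3, which rose, and for SLC25A4 and SLC25A17, which fell, because these 3 of the called members hold a searched motif just upstream of the gene. Not all called members could be searched there. SLC25A16 and SLC25A32 had no promoter in the RefSeq table, and the 250 bases of SLC25A6 lay wholly inside its gene. Each run is the part of the 250 bases before the RefSeq start (GRCh38.p14) that lies outside the GENCODE gene, 5′ to 3′ on the gene's strand, at chr12:98593436-98593590 (plus strand), chr4:185143016-185143240 (plus strand) and chr22:40819400-40819596 (minus strand). Capitals mark a match on either strand to CCAAT (the CCAAT box) or to the NRF1 motif, the longer of the capital runs.
SLC25A3: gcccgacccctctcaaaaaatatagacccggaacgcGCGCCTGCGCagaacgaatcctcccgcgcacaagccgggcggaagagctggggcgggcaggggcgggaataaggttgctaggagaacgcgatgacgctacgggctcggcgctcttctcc
SLC25A4: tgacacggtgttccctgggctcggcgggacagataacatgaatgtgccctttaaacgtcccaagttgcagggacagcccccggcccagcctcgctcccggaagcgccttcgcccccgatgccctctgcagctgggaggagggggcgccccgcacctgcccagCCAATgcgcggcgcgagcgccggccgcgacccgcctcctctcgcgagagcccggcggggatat
SLC25A17: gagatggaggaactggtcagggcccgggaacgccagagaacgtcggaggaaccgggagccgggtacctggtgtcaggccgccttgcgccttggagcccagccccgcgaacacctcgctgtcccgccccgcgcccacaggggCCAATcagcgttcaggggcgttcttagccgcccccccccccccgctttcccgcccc
The run of SLC25A3 holds an NRF1 motif, and those of SLC25A4 and SLC25A17 hold 1 CCAAT box each. SLC25A3 also holds CCAAT in its full 250 bases, though not within the run shown. CCAAT was in 2 of 3 windows of members called higher and in 3 of 7 windows of members called lower. Over full 250-base windows, CCAAT was found in 42.9% of 49 member promoters, from 39 members, and in 32.0% of the 34960 promoters in the RefSeq table. The NRF1 motif was in 8.16% of member promoters and 5.09% of all. The E-box CACGTG was in 14.3% of member promoters and 6.35% of all, with 0 among the 10 windows of called members. The C/EBP-ATF element TGATGNAAN was in 2.04% of member promoters and 3.13% of all, and TATAAA, a core promoter element added after the sequences had been seen, in 8.16% and 10.7%. Several members, the called SLC25A22 among them, have more than 1 window, and the median GC content was 65.6% for member promoters and 58.4% for all.

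Of 8 amino acid carriers 6 were tested, with 0 higher, 2 lower and 4 not called, or 33.3% called against 31.4% of all genes. With SLC25A12 and SLC25A44 also called there, 4 fell under quantile normalization and 4 under the rescaling. For the 8 together the summed level was 103 ± 4.06 TPM in XYA1353 libraries and 125 ± 2.34 TPM in control libraries (SD, n = 3 each). SLC25A22, a glutamate carrier (ENSG00000177542, chromosome 11, 790475 to 798333, minus strand), had 14.9, 14.4 and 17.3 TPM in XYA1353 replicates 1, 2 and 3, against 26.3, 26.6 and 28.5 TPM in control replicates 1, 2 and 3. The groups were well apart, and it fell by 0.77 on the log2 scale (SE 0.097, limma adjusted p = 0.00212). Its paralogue SLC25A18 reached at most 0.450 TPM in any library, and SLC25A22 held 98.0 ± 0.513% in XYA1353 libraries and 99.6 ± 0.237% in control libraries of the pair's TPM (SD, n = 3 each, exact permutation p = 0.1). SLC25A15, which exchanges ornithine for citrulline in the urea cycle (ENSG00000102743, chromosome 13, 40789412 to 40810111, plus strand), stood at 9.68, 8.49 and 11.0 TPM in XYA1353 libraries, against 15.5, 13.9 and 13.9 TPM in control libraries. The groups were apart, and it fell by 0.53 (SE 0.12, limma adjusted p = 0.0139), a call lost without XYA1353 replicate 2, control replicate 1 or both libraries numbered 1 (adjusted p between 0.0512 and 0.115). SLC25A2, the other ornithine carrier, was listed at 0.

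Aspartate/glutamate carriers feed the malate-aspartate shuttle, which moves reducing equivalents into mitochondria. SLC25A13, known as citrin, averaged 40.2 ± 5.08 TPM in XYA1353 libraries and 43.9 ± 1.46 TPM in control libraries (SD, n = 3 each) and was not called (limma adjusted p = 0.360). SLC25A12, known as aralar, averaged 11.8 ± 0.528 TPM in XYA1353 libraries and 14.2 ± 1.007 TPM in control libraries, groups that did not overlap but were not called (log2 fold change -0.25, SE 0.096, limma adjusted p = 0.0861), but were called under quantile normalization and under the rescaling (adjusted p between 0.0417 and 0.0498). HAT1, a histone acetyltransferase gene that overlaps SLC25A12 on the opposite strand, averaged 163 TPM over the 6 libraries. It was itself called lower, with a log2 fold change of -0.25 (limma adjusted p = 0.0237). Whether reads were counted by strand is not known, so reads of the stretch shared with SLC25A12 may count for either gene. SLC25A44, which carries branched-chain amino acids, stood at 9.63, 11.6 and 11.1 TPM in XYA1353 libraries, against 11.98, 15.02 and 13.8 TPM in control libraries. These did not overlap either and were not called (log2 fold change -0.31, limma adjusted p = 0.0871), except under quantile normalization and under the rescaling (adjusted p between 0.0464 and 0.0477). SLC25A29, a carrier of basic amino acids, was the only tested amino acid carrier with a positive fold change, at 16.0, 12.3 and 16.9 TPM in XYA1353 libraries, against 10.7, 10.3 and 12.4 TPM in control libraries. XYA1353 replicate 2 lay within the control range, and the log2 fold change of 0.40 was not called (SE 0.14, limma adjusted p = 0.0689, or 0.0384 with the replicate number as a block and 0.0372 without XYA1353 replicate 2).

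Of 7 cofactor carriers 6 were tested, with 1 higher, 2 lower and 3 not called, or 50.0% called against 31.4% of all genes. SLC25A32, which carries folate and FAD (ENSG00000164933, chromosome 8, 103398635 to 103415189, minus strand), had 12.6, 12.8 and 13.9 TPM in XYA1353 replicates 1, 2 and 3, against 26.6, 22.8 and 21.1 TPM in control replicates 1, 2 and 3. The groups were well apart, and it fell by 0.79 on the log2 scale (SE 0.11, limma adjusted p = 0.00266). DCAF13 overlaps SLC25A32 on the opposite strand, averaged 59.1 TPM over the 6 libraries and also fell, by 0.63. Whether reads were counted by strand is not known, so reads of the shared stretch may count for either gene. SLC25A17, the peroxisomal carrier of coenzyme A, FAD and NAD (ENSG00000100372, chromosome 22, 40769630 to 40819399, minus strand), had 34.7, 34.1 and 36.0 TPM in XYA1353 libraries, against 40.1, 44.5 and 45.6 TPM in control libraries. The groups were apart by less, and it fell by 0.30 (SE 0.077, limma adjusted p = 0.0231), a call lost without XYA1353 replicate 1, XYA1353 replicate 2, control replicate 2, control replicate 3 or both libraries numbered 1 (adjusted p between 0.0567 and 0.0820).

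SLC25A16, linked to coenzyme A transport (ENSG00000122912, chromosome 10, 68477999 to 68527474, minus strand), had 17.7, 13.4 and 14.1 TPM in XYA1353 replicates 1, 2 and 3, against 9.40, 8.41 and 9.43 TPM in control replicates 1, 2 and 3. XYA1353 replicate 1 was the highest, and all XYA1353 libraries exceeded the controls, by 0.66 on the log2 scale (SE 0.13, limma adjusted p = 0.00778, or 0.0557 without both libraries numbered 1). SLC25A42, the other coenzyme A carrier, averaged 29.2 ± 4.31 TPM in XYA1353 libraries and 26.9 ± 3.27 TPM in control libraries (SD, n = 3 each) and was not called (limma adjusted p = 0.547). It held 65.8 ± 6.09% in XYA1353 libraries and 74.7 ± 1.96% in control libraries of the pair's summed TPM (exact two-sided permutation p = 0.1). SLC25A51, which brings NAD into mitochondria, averaged 20.2 ± 1.57 TPM in XYA1353 libraries and 23.1 ± 1.40 TPM in control libraries and was not called (limma adjusted p = 0.167). SLC25A52, its near-identical copy with 97.6% of aligned coding bases shared, was listed above 0 in control replicate 3 alone, and counting could split reads between them. SLC25A26, the carrier of S-adenosylmethionine, averaged 7.85 ± 0.620 TPM in XYA1353 libraries and 8.79 ± 0.550 TPM in control libraries and was not called (limma adjusted p = 0.345).

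**Figure D4:**
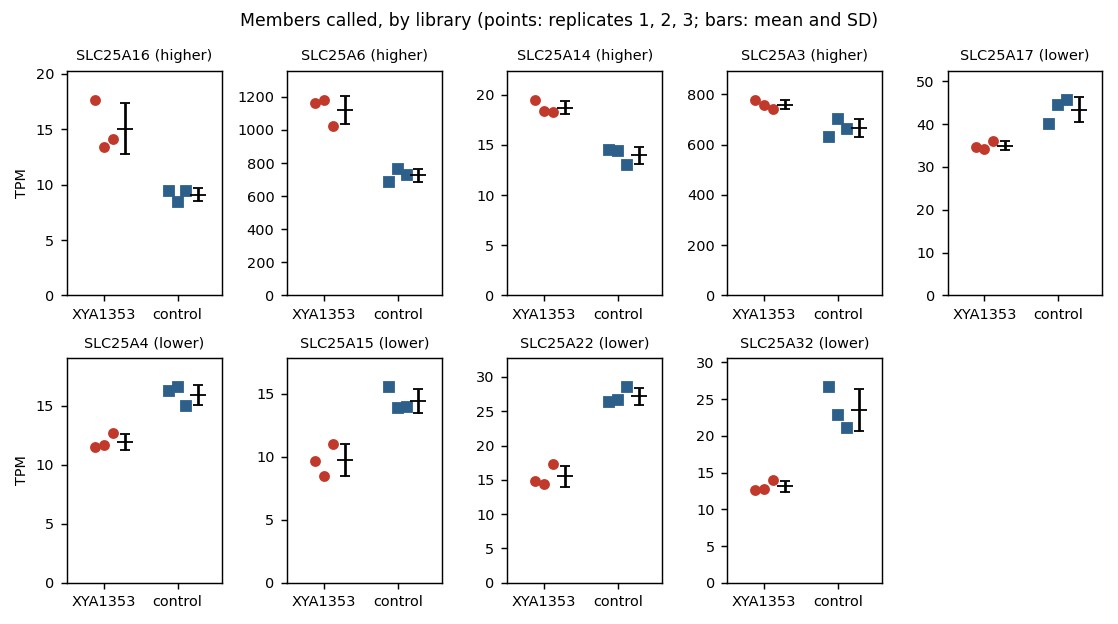
TPM in each library for the 9 called members, with XYA1353 left of control in every panel and the mean with its SD. The groups do not overlap in any of the 9 panels, which is likely for genes picked by a call on these same values. The vertical scale differs between panels.

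Carriers of di- and tricarboxylates, which link the citric acid cycle to the cytosol, gave 0 calls by limma among 4 members, with 1 at an unadjusted p under 0.05. Over all genes 31.4% were called and 42.8% had an unadjusted p under 0.05, so 0 of 4 does not set the class apart. SLC25A1, the citrate carrier that supplies lipid synthesis, stood at 196, 179 and 177 TPM in XYA1353 libraries, against 175, 166 and 189.6 TPM in control libraries. The groups overlapped (log2 fold change 0.058, SE 0.072, limma adjusted p = 0.576). SLC25A10, which exchanges dicarboxylates for phosphate, stood at 30.8, 32.4 and 46.6 TPM in XYA1353 replicates 1, 2 and 3, against 50.1, 47.3 and 49.6 TPM in control replicates 1, 2 and 3. XYA1353 replicates 1 and 2 were far below the controls and replicate 3 just below them. Its log2 fold change of -0.44 was not called (SE 0.15, limma adjusted p = 0.0642), whereas without XYA1353 replicate 3 it was -0.62 (adjusted p = 0.00265) and under the rescaling -0.51 (adjusted p = 0.0477). SLC25A11, the oxoglutarate carrier of the malate-aspartate shuttle, averaged 28.4 ± 0.280 TPM in XYA1353 libraries and 30.3 ± 2.76 TPM in control libraries. SLC25A21, an oxoadipate carrier, averaged 20.3 ± 1.59 TPM in XYA1353 libraries and 20.3 ± 1.24 TPM in control libraries (SD, n = 3 each), and neither was called.

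The calcium-regulated ATP-Mg/phosphate carriers, which set the size of the adenine nucleotide pool in the matrix, gave 0 calls among 3 tested members and 0 at an unadjusted p under 0.05. The shares of all genes were 31.4% and 42.8%, so 0 of 3 does not set the class apart. SLC25A23, SLC25A24 and SLC25A25 had log2 fold changes of -0.067, 0.060 and 0.15 with overlapping groups. SLC25A41, a paralogue grouped with them here, averaged 0.753 ± 0.376 TPM in XYA1353 libraries and 0.373 ± 0.2003 TPM in control libraries (SD, n = 3 each) and was not tested. Neither pyrimidine nucleotide carrier was called, nor was either at an unadjusted p under 0.05. The same shares of all genes apply, with still fewer members. SLC25A36 ranged from 14.9 to 24.3 TPM in XYA1353 libraries and from 15.3 to 18.2 TPM in control libraries, and SLC25A33 ranged from 9.96 to 12.4 TPM in XYA1353 libraries and from 10.7 to 14.5 TPM in control libraries.

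Glutathione, acylcarnitine and iron carriers gave 0 calls by limma among 4 tested members, and 0 at an unadjusted p under 0.05. Beside the 31.4% and 42.8% of all genes, 0 of 4 does not set the class apart. SLC25A39, a glutathione carrier and the fourth most abundant member, stood at 149.7, 182 and 195 TPM in XYA1353 replicates 1, 2 and 3, against 186, 205 and 197 TPM in control replicates 1, 2 and 3. XYA1353 replicate 1 was the lowest library and the groups overlapped (log2 fold change -0.16, SE 0.10, limma adjusted p = 0.260). SLC25A40, its paralogue, ranged from 19.6 to 34.6 TPM in XYA1353 libraries and from 22.03 to 26.9 TPM in control libraries, and DBF4, which overlaps it on the opposite strand, was called lower. SLC25A20, which brings in acylcarnitines for fatty acid oxidation, averaged 20.4 ± 1.65 TPM in XYA1353 libraries and 18.7 ± 2.66 TPM in control libraries (SD, n = 3 each) and was not called (limma adjusted p = 0.473). SLC25A28, the iron carrier mitoferrin-2, averaged 14.9 ± 0.711 TPM in XYA1353 libraries and 14.9 ± 0.546 TPM in control libraries, with a log2 fold change of -0.0016 (SE 0.087).

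Among relatives of the uncoupling proteins SLC25A14 rose. This gene (ENSG00000102078, chromosome X, 130339888 to 130373361, plus strand) stood at 19.5, 18.4 and 18.3 TPM in XYA1353 replicates 1, 2 and 3, against 14.5, 14.4 and 13.0 TPM in control replicates 1, 2 and 3. The groups were apart, by 0.40 on the log2 scale (SE 0.088, limma adjusted p = 0.0140), a call lost without control replicate 3 or both libraries numbered 1 (adjusted p between 0.0550 and 0.0834). SLC25A30 ranged from 3.06 to 5.09 TPM in XYA1353 libraries and from 4.77 to 7.09 TPM in control libraries. Its log2 fold change of -0.53 was not called (SE 0.21, limma adjusted p = 0.0944, or 0.0485 without XYA1353 replicate 2 and 0.0415 under quantile normalization).

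Of the 8 members whose solute was not assigned here, 4 were tested and 0 called by limma, with 2 at an unadjusted p under 0.05. Shares over all genes were 31.4% called and 42.8% at an unadjusted p under 0.05. SLC25A35 lay just outside the threshold, at 5.65, 5.39 and 4.58 TPM in XYA1353 libraries, against 2.56, 3.92 and 3.55 TPM in control libraries. The groups did not overlap (log2 fold change 0.52, SE 0.17, limma adjusted p = 0.0503), and it was called higher with a pseudocount of 0.1, under median-of-ratios scaling and with no trend in eBayes (adjusted p between 0.0421 and 0.0492). SLC25A46, an outer membrane protein of mitochondrial dynamics, stood at 18.7, 17.2 and 17.1 TPM in XYA1353 libraries, against 24.5, 20.9 and 19.3 TPM in control libraries, also without overlap and not called (log2 fold change -0.27, limma adjusted p = 0.0992), except under the rescaling (adjusted p = 0.0468). SLC25A53 ranged from 3.31 to 4.08 TPM in XYA1353 libraries and from 2.77 to 3.88 TPM in control libraries, and SLC25A43 ranged from 2.03 to 4.88 TPM in XYA1353 libraries and from 2.68 to 3.53 TPM in control libraries, with overlapping groups. SLC25A45 was just under the filter of 1 TPM, at 0.680, 1.85 and 1.71 TPM in XYA1353 libraries, against 0.780, 0.330 and 0.590 TPM in control libraries. SLC25A34 was listed at 0.41, 0.51 and 0.24 TPM in XYA1353 libraries, against 0.02 TPM in each control library. With no filter on low values its log2 fold change was 0.44 (SE 0.079, limma adjusted p = 0.0225), the only call among the 7 members which that fit added. SLC25A47 and SLC25A48 did not exceed 0.09 TPM in any library.

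Genes that work beside the carriers were taken from 12 companion lists. The lists were chosen with earlier results of these data known, so their shares, here and below, are a description and not an independent test. Of their 90 genes 86 were tested, with 14 higher, 33 lower and 39 not called, or 54.7% called, against 31.4% of all genes. Those called higher made up 16.3% of tested companion genes and 15.4% of all genes, and those called lower 38.4% and 16.0%. The median log2 fold change was -0.17 in companion genes and 0.019 over all genes. Without XYA1353 replicate 2 the counts were 9 higher and 21 lower, and without both libraries numbered 1 they were 2 higher and 17 lower.

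The 3 porin genes of the outer membrane fell, VDAC1 under all 15 alternatives run. VDAC1 stood at 171, 166 and 164 TPM in XYA1353 replicates 1, 2 and 3, against 279, 257 and 245 TPM in control replicates 1, 2 and 3, with a log2 fold change of -0.64 (limma adjusted p = 0.00138). VDAC3 fell by 0.37, a call lost without both libraries numbered 1, where the adjusted p lay at the threshold itself. VDAC2 fell by 0.26, a call lost with no filter on low values, under quantile normalization or with no trend in eBayes, and without XYA1353 replicate 2, control replicate 1, control replicate 2 or both libraries numbered 1 (adjusted p between 0.0519 and 0.101). Of 13 genes of the import route through TOM and TIM22, 0 rose and 8 fell, 5 stayed without a call and the median log2 difference was -0.41. The share called lower was 61.5%, against 16.0% of all genes. TOMM22, a receptor of the outer membrane translocase, stood at 35.7, 38.9 and 41.6 TPM in XYA1353 libraries, against 63.2, 62.5 and 62.7 TPM in control libraries, a log2 fold change of -0.68 (limma adjusted p = 0.00159). TOMM40, the pore of that translocase, fell by 0.63 (limma adjusted p = 0.0159), a call lost with no filter on low values, and without XYA1353 replicate 2, control replicate 1, control replicate 3 or both libraries numbered 1 (adjusted p between 0.0543 and 0.109). TIMM22, the core of the carrier translocase, fell by 0.47, a call lost with no filter on low values, and without XYA1353 replicate 1, XYA1353 replicate 2, control replicate 1, control replicate 2 or both libraries numbered 1 (adjusted p between 0.0518 and 0.144). The count of import genes that fell was 5 with no filter on low values, 7 with the replicate number as a block, 4 without XYA1353 replicate 2, 5 without control replicate 1, 5 without control replicate 2 and 3 without both libraries numbered 1.

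**Figure D5:**
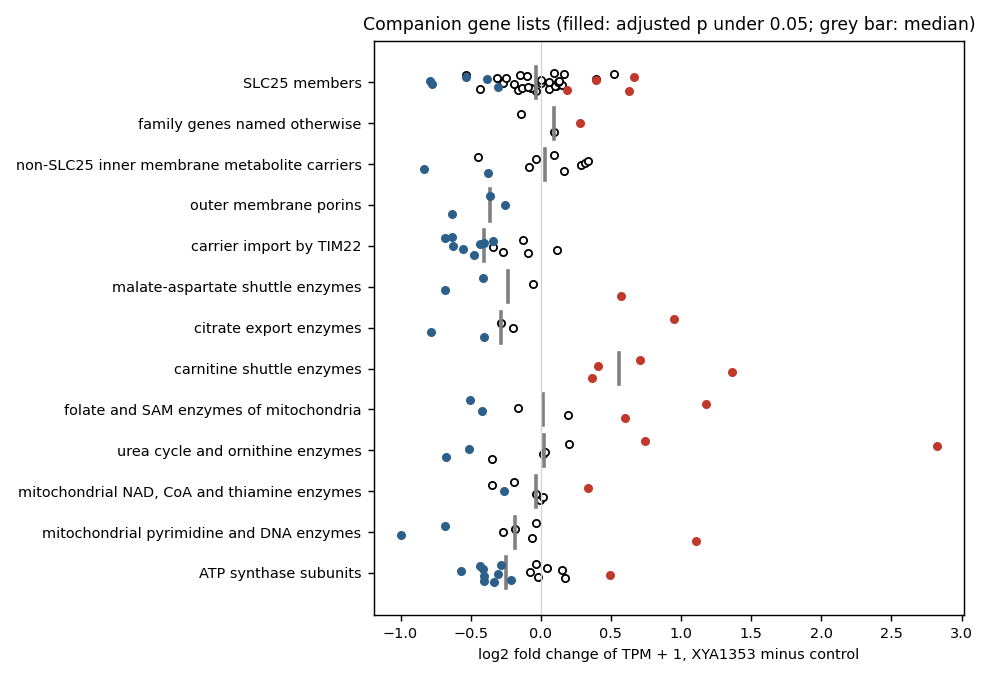
Log2 fold change of TPM + 1 (XYA1353 minus control) for the tested SLC25 members and the 12 companion lists, with 1 point per gene and called genes in colour. The 3 porins lie below 0 in log2 fold change and the 4 tested carnitine shuttle enzymes above it, with SLC25 members on both sides.

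Enzymes of the carnitine shuttle, which loads the acyl groups that SLC25A20 carries, rose in 4 of 4 tested. CPT1B, a carnitine palmitoyltransferase, stood at 10.2, 9.52 and 6.05 TPM in XYA1353 replicates 1, 2 and 3, against 2.11, 2.69 and 3.24 TPM in control replicates 1, 2 and 3, a log2 fold change of 1.37 (limma adjusted p = 0.00407). CRAT, carnitine acetyltransferase, rose by 0.71, CPT2 by 0.41 and CPT1A by 0.37, while CPT1C had a mean under 1 TPM. Of all genes 15.4% were called higher. Leaving out XYA1353 replicate 2 left 2 of the 4 called, the call of CPT1A was also lost without control replicate 2 or control replicate 3, and leaving out both libraries numbered 1 left 0. Of 16 ATP synthase genes 1 rose and 9 fell, 6 had no call and the median log2 difference was -0.25. The share called lower was 56.3%, against 16.0% of all genes. The count that rose was 3 under quantile normalization and 2 without XYA1353 replicate 3, and the count that fell was 4 without both libraries numbered 1. ATP5MC1, of the membrane ring, fell by 0.57 (limma adjusted p = 0.00407), a call lost without both libraries numbered 1 (adjusted p = 0.0602). ATP5PD, of the peripheral stalk, rose by 0.49 (adjusted p = 0.00251).

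Malate-aspartate shuttle enzymes went in opposite directions, with 75.0% of the 4 called, against 31.4% of all genes. GOT2, the mitochondrial aspartate aminotransferase, stood at 80.6, 87.5 and 92.9 TPM in XYA1353 libraries, against 140.5, 133 and 146 TPM in control libraries, a log2 fold change of -0.68 (limma adjusted p = 0.00153). GOT1, its cytosolic partner, averaged 72.6 ± 8.07 TPM in XYA1353 libraries and 48.4 ± 3.72 TPM in control libraries (SD, n = 3 each), a log2 fold change of 0.57 (limma adjusted p = 0.00643), a call lost without both libraries numbered 1 (adjusted p = 0.0621). MDH2, the mitochondrial malate dehydrogenase, also fell, by 0.41, and MDH1 was not called. Of 5 enzymes around citrate export 1 rose, 2 fell and 2 were not called, or 60.0% called against 31.4% of all genes. ACLY, which cleaves exported citrate, fell by 0.78 (limma adjusted p = 0.00122) and CS, citrate synthase, by 0.41. IDH1, the cytosolic isocitrate dehydrogenase, rose by 0.95 (adjusted p = 0.0137), a call lost without XYA1353 replicate 2, control replicate 1, control replicate 3 or both libraries numbered 1 (adjusted p between 0.0559 and 0.129).

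Of 6 mitochondrial folate genes 2 rose, 2 fell and 2 were not called, or 66.7% called against 31.4% of all genes. ALDH1L2 rose by 1.17 and SHMT2, the mitochondrial serine hydroxymethyltransferase, by 0.60, while MTHFD2L fell by 0.42 and MTFMT by 0.51. The call of MTFMT was lost with no filter on low values or with the filter at 5 TPM, and without any 1 library or both libraries numbered 1 (adjusted p between 0.0522 and 0.137). The count that fell was 1 whichever library was left out, and without both libraries numbered 1 the counts were 0 higher and 1 lower. Of 8 ornithine and urea cycle genes 2 rose, 2 fell and 4 were not called, or 50.0% called against 31.4% of all genes. ASS1, argininosuccinate synthase, stood at 25.1, 26.2 and 17.4 TPM in XYA1353 libraries, against 2.00, 4.97 and 1.05 TPM in control libraries, a log2 fold change of 2.82 (limma adjusted p = 0.00241, or 0.0528 without both libraries numbered 1). ARG2, the mitochondrial arginase, rose by 0.74, a call lost without XYA1353 replicate 1, XYA1353 replicate 2, control replicate 1 or both libraries numbered 1 (adjusted p between 0.0525 and 0.125). ALDH18A1, of proline and ornithine synthesis, fell by 0.68 and ODC1, ornithine decarboxylase, by 0.51, a call lost without XYA1353 replicate 2 or both libraries numbered 1 (adjusted p between 0.0570 and 0.0842).

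Of 10 tested inner membrane transporters outside the family, 0 rose, 2 fell and 8 were not called, or 20.0% called against 31.4% of all genes. SFXN1, a mitochondrial serine transporter, stood at 50.4, 41.1 and 45.3 TPM in XYA1353 replicates 1, 2 and 3, against 83.6, 74.7 and 87.5 TPM in control replicates 1, 2 and 3, a log2 fold change of -0.83 (limma adjusted p = 0.00181). MPC1, a subunit of the pyruvate carrier, fell by 0.38 (limma adjusted p = 0.0167), a call lost without XYA1353 replicate 2, control replicate 1, control replicate 2 or both libraries numbered 1 (adjusted p between 0.0502 and 0.108), while its partner MPC2 was not called (log2 fold change 0.16, limma adjusted p = 0.138, or 0.0231 under quantile normalization). With the replicate number as a block 3 of the 10 fell, ABCB8, an ABC transporter, being added (adjusted p = 0.0347), and under quantile normalization 2 rose. The count that fell was 1 without XYA1353 replicate 2, control replicate 1, control replicate 2 or both libraries numbered 1. Of 3 tested carrier family genes named otherwise, MTCH1 rose by 0.28 (limma adjusted p = 0.00996), a call lost without both libraries numbered 1 (adjusted p = 0.0704), and UCP2 and MTCH2 were not called. The share called was 33.3%. Of 7 genes of mitochondrial nucleotides and DNA upkeep 1 rose, 2 fell and 4 were not called, or 42.9% called against 31.4% of all genes. TK2, the mitochondrial thymidine kinase, rose by 1.11, TFAM, which packages mitochondrial DNA, fell by 1.00, and TWNK, its helicase, by 0.68. Of 7 genes of NAD, coenzyme A and thiamine pyrophosphate use 1 rose, 1 fell and 5 were not called, or 28.6% called against 31.4% of all genes. PANK2, a pantothenate kinase, rose by 0.34, a call lost with no filter on low values, and without XYA1353 replicate 1, XYA1353 replicate 2, control replicate 1, control replicate 2, control replicate 3 or both libraries numbered 1 (adjusted p between 0.0563 and 0.166). COASY, coenzyme A synthase, fell by 0.26, a call lost under quantile normalization or with no trend in eBayes, and without XYA1353 replicate 2, control replicate 2, control replicate 3 or both libraries numbered 1 (adjusted p between 0.0518 and 0.1004).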

How the data were processed

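Expression was measured in 6 libraries, 3 XYA1353 and 3 control. Per the labels' protocols, a Qiagen kit gave the RNA and a SMARTER mRNA-Seq kit the libraries. The authors deposited 1 table of TPM per gene, and its 2 columns of group means were not used. The submitters' processing notes name GRCm38 and mm10, while 0 of the gene identifiers are mouse, so no build was taken from them; the aligner and counting tool are not stated. Gene coordinates came from GENCODE 29 by identifier, which matched all 45 members, and promoters from RefSeq.

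Of 61206 rows, 60623 had a gene name and 13392 of these a mean of at least 1 TPM. Their log2(TPM + 1) values were fitted with limma 3.58.1 in R 4.3.3 (lmFit, then eBayes with a trend, no covariate), after a test on simulated data, and calls are two-sided. Shares were compared by exact permutation (scipy 1.17.1), and coding sequences aligned with Biopython 1.88. Values per library are given for called members (up to the 8 largest changes in each direction), the 6 most abundant, and paralogues on opposite sides. For companion lists, the 2 called genes with the largest change are named; others, and values per library beyond this rule, were chosen after their values were seen. The members and lists were chosen with earlier results of these data known. Deviations from the group means correlated weakly between same-numbered libraries (r across genes 0.111, 0.114 and 0.133, with other pairs at -0.116 to -0.00187). Centring on group means ties these r values together, so the other pairs are not an independent contrast. The replicate number served as a block in an alternative. Other alternatives changed the pseudocount (0.1), the filter (none, or 5 TPM), the scaling, the eBayes trend and the libraries included. Certain genes of the family and of the erythroid list are not reported here, and protein sequences were not used.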

Additional observations from a re-analysis of the deposited data

How the results depend on the processing

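Over the 35 tested members and up to 15 alternatives each, 459 results kept direction and call, 26 lost the call, 14 gained one and 22 changed sign, the last all in members that were not called. Without any 1 library, 2 to 4 members were called higher and 3 to 6 lower, 9 to 17 companion genes higher and 21 to 34 lower, and 1200 to 2350 of all genes higher and 1408 to 2110 lower. Without both libraries numbered 1 these were 1 and 2 members, 2 and 17 companion genes, and 649 and 783 genes. Rescaling without mitochondrial, immunoglobulin, ribosomal RNA and globin genes gave 9 members lower, and quantile normalization 8. The replicate block ended the call of SLC25A3, added SLC25A29 and changed no other member's call. Among companion genes it ended the calls of TIMM8B (adjusted p = 0.0568) and ATP5F1C (0.0557) and added ABCB8 (0.0347) and POLRMT (0.0404). Fits with fewer libraries hold fewer samples; the cause of the other changes was not tested. With depth unknown, no limit of detection can be given.

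Signs of log2 fold changes turned for SLC25A1 (-0.012), SLC25A21 (-0.066) and SLC25A24 (-0.0069) under that rescaling, for SLC25A21 (-0.031), SLC25A43 (-0.11) and SLC25A53 (-0.047) under quantile normalization, and for SLC25A21 (-0.038) under median-of-ratios scaling. With 1 library, or both numbered 1, left out, the values ran -0.099 to 0.059 for SLC25A21, -0.035 to 0.15 for SLC25A24, -0.044 to 0.036 for SLC25A28, -0.17 to 0.032 for SLC25A33, -0.056 to 0.28 for SLC25A36, -0.090 to 0.31 for SLC25A40 and -0.19 to 0.36 for SLC25A43. Likewise the difference in share, in percentage points, ran -1.26 to 7.71 for SLC25A36 among pyrimidine nucleotide carriers, negative without both libraries numbered 1, and 0 to 0.254 for SLC25A51 among NAD carriers, 0 without control replicate 3.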
